A study of Mus musculus with 4 samples.

Results

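Complement and coagulation genes were examined in mammary tissue of mice with and without miR-21. Of 36 genes listed by name for these pathways, 35 were found in the deposited table of 30506 loci, and C7 is not analysed here. The 35 genes occupied 34 rows, because C2 and Cfb shared a row. A further 2 members were merged with a neighbouring gene, Masp2 with Srm and Cfp with Elk1, so that the value of such a row cannot be assigned to the member alone. The members were listed by name, with earlier results of these data known. Poly(A) RNA had been sequenced from the mammary glands of 2 wild-type mice (miR-21+/+, labelled WT) and 2 mice lacking miR-21 (miR-21-/-, labelled KO). All 4 mice were 2 months old and carried the same label of a mixed background, 129SV::FVB/N::C57BL/6. The label does not give the share of each strain in a mouse, so strain alleles may differ between the pooled genotypes. The labels name no treatment, and the miR-21-/- line is a knockout of the whole animal and not of a single cell type. The study took the tissue from virgin mice as the whole gland, with epithelium, fat pad, vessels and leukocytes together.

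Complement is a cascade of plasma proteins that tags particles and damaged cells, and coagulation is a cascade that turns fibrinogen into fibrin. In the classical pathway the C1 complex (C1q, C1r and C1s) cleaves C4 and C2, and the resulting enzyme cleaves C3, the protein on which all routes of activation converge. Factor B and properdin drive the alternative pathway, and C5 to C9 build the membrane attack complex. Clotting starts when tissue factor meets factor VII, while thrombomodulin, the endothelial protein C receptor and tissue factor pathway inhibitor restrain it and plasminogen activators dissolve fibrin. The liver makes most of these proteins for plasma, but macrophages, endothelium, fibroblasts and fat make part of them locally, and plasminogen activators are known for their activity in the remodelling mammary gland.

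The authors' value for each locus is an FPKM, a fragment count scaled to the exon length of the locus and to the size of the library, and it combines the 2 mice of a genotype. The spread between mice is not visible in such a value, so no difference below has a replicate check and no test was run. Each difference is given as the log2 ratio of FPKM in miR-21-/- over miR-21+/+ glands, and a fold is said to be passed at 2-fold or at 1.5-fold. The depth of the libraries is unknown. Over all loci the FPKM columns had sums of 759295 (miR-21+/+) and 1175600 (miR-21-/-), but over named loci the sums were 380567 and 355385. The median log2 ratio of the 9714 named loci above 5 FPKM in at least 1 genotype was −0.03. Scaling both columns to equal sums over all loci would move every log2 ratio by −0.63, that median included, and 12 of the 28 member rows above 5 FPKM would then change sign, with F3 and Thbd as the rows left above 0. Equal sums over named loci would move every ratio by 0.10 and change the sign of 3. Higher and lower are therefore used below for the columns as deposited, where the median named locus is close to 0. The row holding Mir21 and its host gene Vmp1 stood at 42.5 FPKM in miR-21+/+ and 68.2 FPKM in miR-21-/- glands, a value of the long host transcript that does not check the loss of the mature microRNA.

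The listed genes as a whole sat near the centre of the transcriptome. Of the 34 rows, 28 exceeded 5 FPKM in at least 1 genotype. Of these, 14 (50%) had a log2 ratio above 0, against 43.1% of the named loci, and 14 below. Their median log2 ratio was 0.00, with quartiles of −0.23 and 0.18, against a median of −0.03 and quartiles of −0.16 and 0.09 for the 9714 named loci. None of the 28 rows (0) reached 2-fold in either direction, where 2.73% of the named loci did, 1.25% higher and 1.48% lower. At 1.5-fold, 3 of 28 rows (10.7%) were past the limit, a share near the 8.18% of all named loci. These were F3 and Thbd, higher in miR-21-/- glands (the background for higher loci was 3.85%), and C3, lower (background 4.33%). Within 1.2-fold lay 17 of the 28 rows (60.7%), against 74.8% of the named loci. The 18 complement rows had a median of −0.05 and the 10 coagulation rows a median of 0.14.

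**Figure D1:**
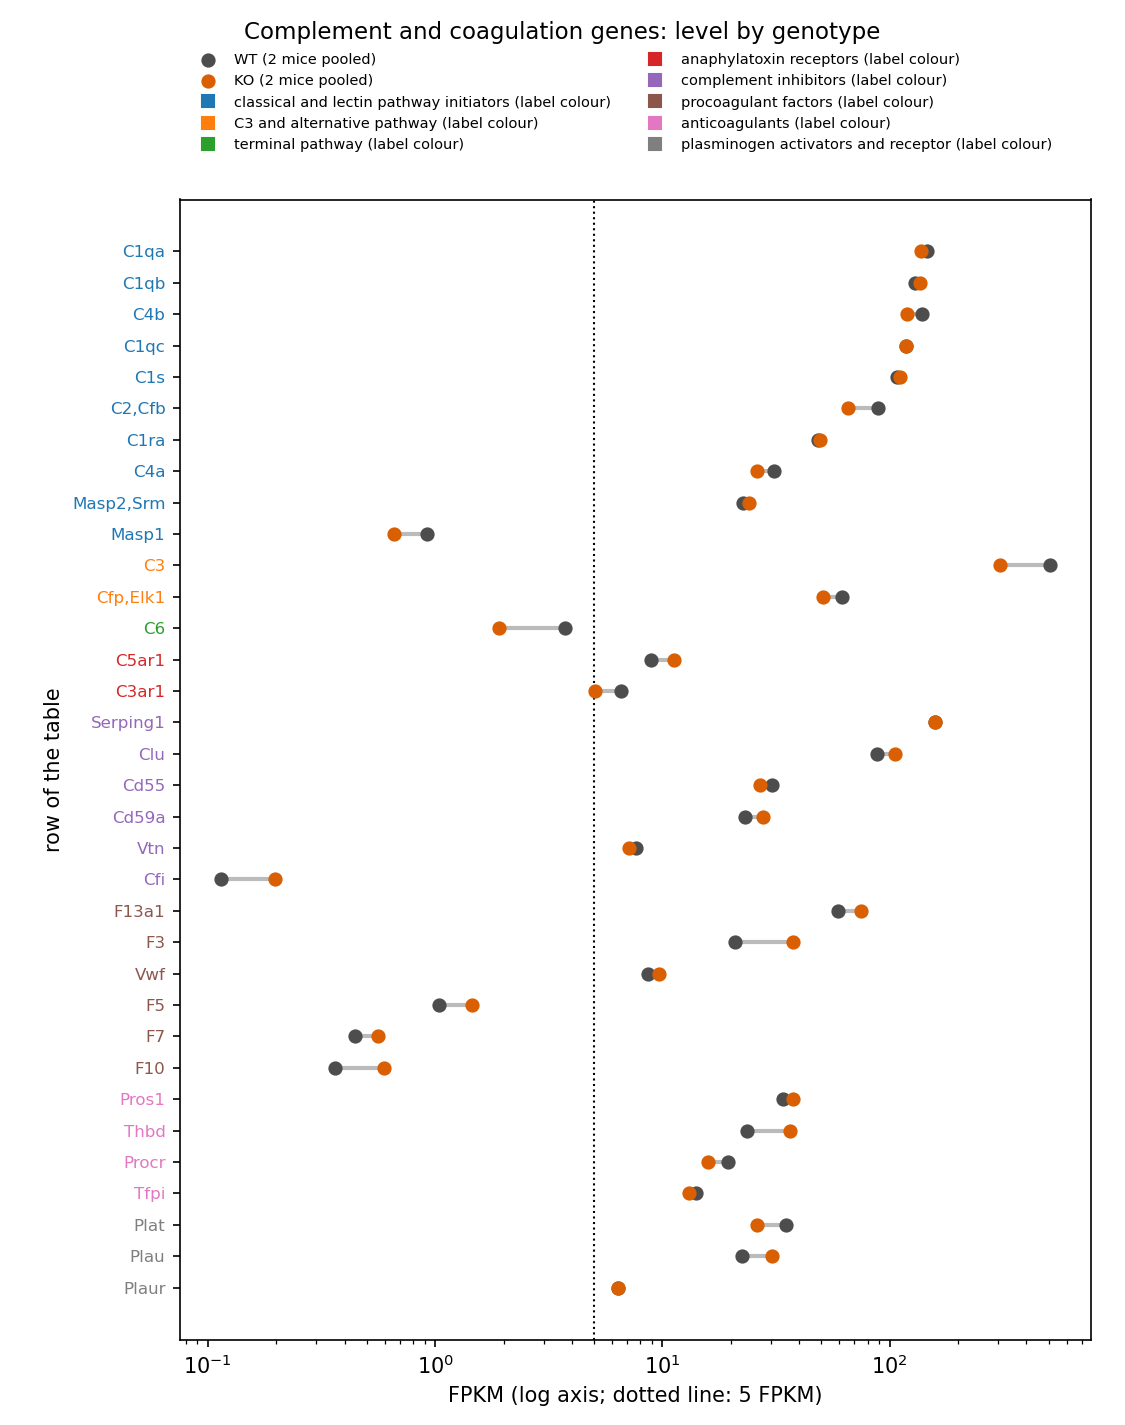
FPKM (log axis) of the 34 rows holding complement and coagulation genes, grouped by role, with one point for the 2 pooled miR-21+/+ mice and one for the 2 pooled miR-21-/- mice; the dotted line marks 5 FPKM. Levels run from 0.115 FPKM for Cfi to 507 FPKM for C3, and the widest gaps above the line are those of C3, F3 and Thbd.

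**Figure D2:**
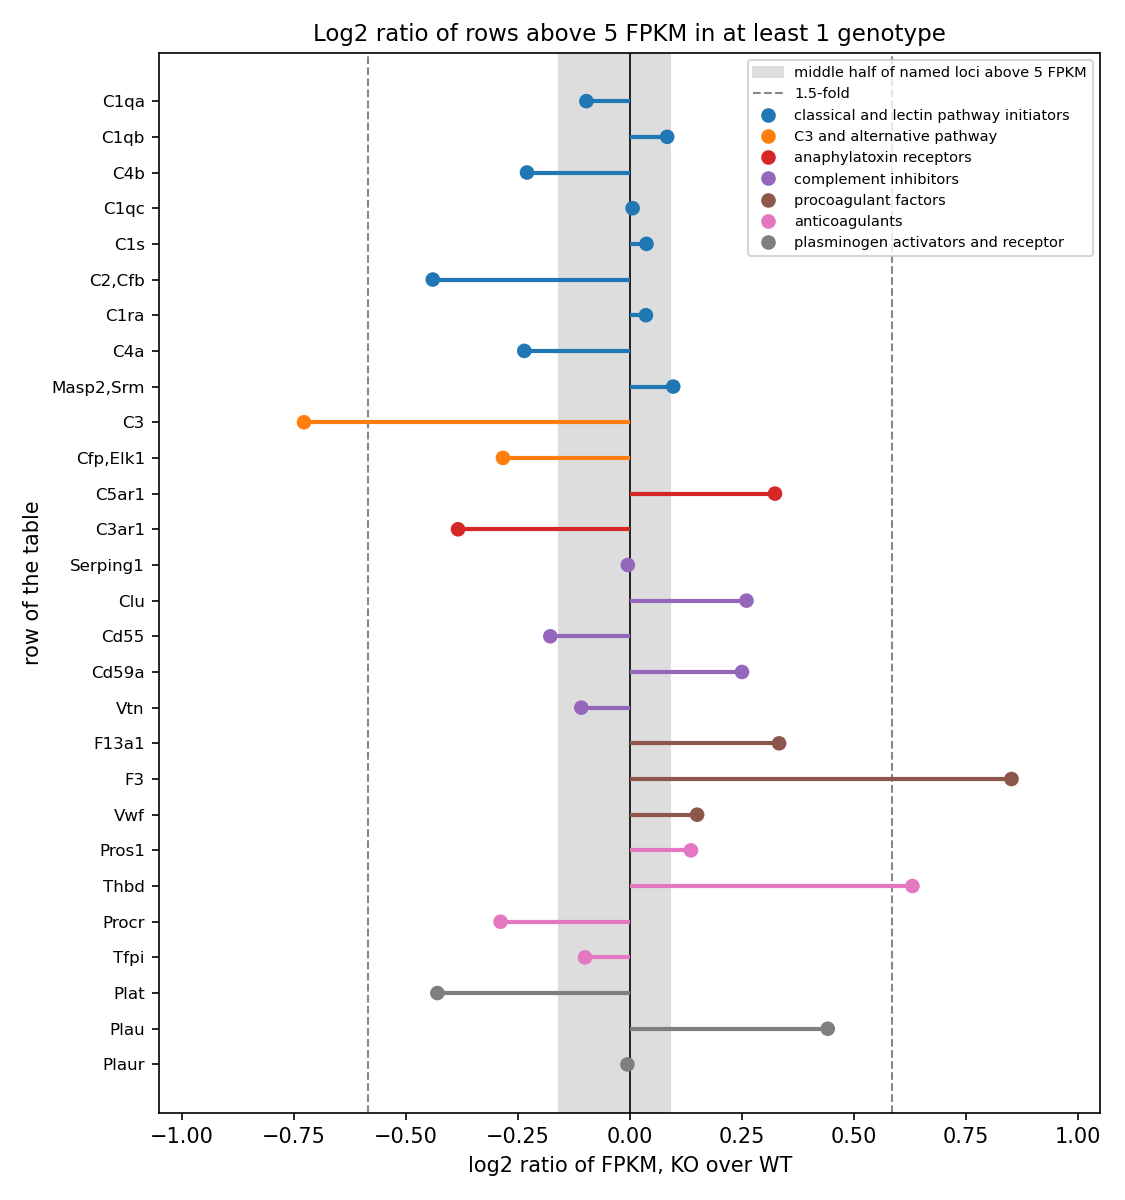
Log2 ratio of FPKM, miR-21-/- over miR-21+/+, for the 28 rows above 5 FPKM in at least 1 genotype, coloured by role, as deposited and without scaling. The grey band spans the quartiles of all named loci (−0.16 to 0.09) and the dashed lines mark 1.5-fold; C3 lies beyond the line on the left, F3 and Thbd beyond the line on the right.

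The microRNA that the knockout removes is printed here with its seed (bases 2 to 8) in capitals, since the comparison turns on its absence. The sequence is that of RefSeq (GRCm38.p6, chr11:86584120-86584141, minus strand).
mmu-miR-21a-5p: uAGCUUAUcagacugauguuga
A transcript that pairs with bases 2 to 8 reads ATAAGCT (a 7mer-m8 site, or an 8mer when an A follows), and a 7mer-A1 site reads TAAGCTA. The longest annotated 3′ UTR was searched on its own strand for 34 of the 35 genes. Only F5 (1 of 34, 2.94%) held an 8mer or 7mer-m8 site, against 6.83% of 9738 genes over 5 FPKM whose 3′ UTR is annotated. F5 itself was under 5 FPKM, and of the 28 members over that limit with a 3′ UTR, 0 held such a site. With 7mer-A1 sites counted as well, Thbd joined it (2 of 34, 5.88%, against 11.02%), as the 1 of 28 members over 5 FPKM (3.57%). Both sites are shown as the last bases of a 22-base stretch of mm9, with the match in capitals and its coordinates, because they are the sites found in members and one of them lies in a gene past 1.5-fold.
F5 (chr1:166149802-166149808, plus strand): tttttctagttgagaATAAGCT
Thbd (chr2:148230399-148230405, minus strand): gggttttgttttaagTAAGCTA
The F5 site starts at base 147 of a 3′ UTR of 753 nt and the Thbd site at base 1544 of 1742 nt. These are matches of letters, and no binding was measured. No 8mer site was found in a member, against 1.90% of the same 9738. F3 and C3, the other genes past 1.5-fold, held none of these sites in annotated 3′ UTRs of 813 nt and 39 nt.

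The 3 chains of C1q, which form the recognition molecule of the classical pathway, were abundant and close to equal in both genotypes. C1qa stood at 147 FPKM in miR-21+/+ and 137 FPKM in miR-21-/- glands, a log2 ratio of −0.10. C1qb stood at 129 and 136 FPKM (0.08), and C1qc at 118 FPKM in both (0.01). The chains lie side by side on chromosome 4 between 136434673 and 136454759, and their levels kept a narrow ratio, with C1qb at 0.878 times C1qa in miR-21+/+ and 0.995 times in miR-21-/- glands.

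The proteases of the C1 complex were as even as the C1q chains. C1s (chromosome 6, 124480362 to 124492377) stood at 108 and 110 FPKM, and C1ra (chromosome 6, 124462639 to 124473458) at 48.3 and 49.5 FPKM, both with a log2 ratio of 0.04. The ratio of C1ra to C1s was 0.449 in wild-type and 0.448 in knockout glands. Serping1, the C1 inhibitor that inactivates both proteases, was the most abundant inhibitor of the list and differed least, at 159 FPKM in miR-21+/+ and 158 FPKM in miR-21-/- glands. The C1ra and C1s values may include reads of close relatives. Of all 50-base windows of the C1ra transcript, 47.5% also occur in C1rb, and 24.3% of those of C1s occur in Gm5077.

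The rows holding C4 and C2, the substrates of the C1 complex, were lower in miR-21-/- glands by less than 1.5-fold. Those of C4a and C4b differed by less than 1.2-fold. C4b stood at 139 FPKM in miR-21+/+ and 119 FPKM in miR-21-/- glands (log2 ratio −0.23), and C4a at 30.8 and 26.2 FPKM (−0.24). The level of C4b was 4.51 times that of C4a in miR-21+/+ and 4.53 times in miR-21-/- glands. The merged row of C2, the serine protease of the classical C3-cleaving enzyme, and Cfb, its counterpart in the alternative pathway, stood at 88.9 and 65.6 FPKM (−0.44). This row (chromosome 17, 34987336 to 35019134) spans both genes, and a separate row of Rdbp overlaps it, at 13.7 and 13.1 FPKM.

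C4a and C4b are near copies, which limits how well reads tell them apart. Aligned over 5366 bases, their transcripts were identical at 5161 (96.2%), and 35.2% of the 50-base windows of each also occur in the other. The 30-base window in which they differ most, at 9 bases, is printed to show where reads can separate them. Both are on the minus strand of chromosome 17 (mm9), and capitals mark the differing bases.
C4a (chr17:34953037-34953066): aATtggtggctAAagggACtttGgattCaA
C4b (chr17:34872381-34872410): aGGtggtggctCGagggGTtttTgattTaG
The row of C4b runs over 134719 bp (34797347 to 34932065), while the annotated gene covers 15503 bp (34865325 to 34880827), and a separate row of Tnxb overlaps it, at 47.1 and 50.9 FPKM. C4a is annotated as a processed transcript in GENCODE.

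The listed members of the lectin pathway were its proteases. Masp1, which activates Masp2 on mannose-binding lectin, stood at 0.924 FPKM in miR-21+/+ and 0.657 FPKM in miR-21-/- glands. The row of Masp2 and Srm stood at 22.6 and 24.1 FPKM (log2 ratio 0.10), and Srm encodes spermidine synthase, an enzyme outside complement. Of the 50-base windows of the Masp2 transcript, 57.2% also occur in the neighbouring gene Tardbp.

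C3 was the most abundant member and, of the rows above 5 FPKM, the only one more than 1.5-fold lower. Its level was 507 FPKM in miR-21+/+ and 306 FPKM in miR-21-/- glands, a difference of −201 FPKM and a log2 ratio of −0.73 (0.604 times the wild-type level). C3 lies on the minus strand of chromosome 17 (57343396 to 57367559), has 41 exons in the annotation and shares no 50-base window with another coding transcript. Among the named loci, 5.39% had a larger absolute log2 ratio, as did 9.36% of the 598 loci above 100 FPKM, of which 9.2% were at least 1.5-fold lower. Because a ratio of members within a column is not moved by scaling, C3 was also set against other members. It stood at 3.46 times C1qa in miR-21+/+ and 2.23 times in miR-21-/- glands, and at 3.64 and 2.58 times C4b. Against the merged row of C2 and Cfb, C3 stood at 5.70 and 4.67 times, a smaller change. Cfp, which encodes properdin, the stabiliser of the alternative C3-cleaving enzyme, shares its row with Elk1, a transcription factor gene, and stood at 61.7 and 50.7 FPKM (−0.28). All rows of the C3 and alternative pathway group were thus lower in the unscaled columns, C3 and the row of Cfp with Elk1 as well as the row of C2 with Cfb. Of all named loci, 43.1% had a log2 ratio above 0.

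The receptors of the complement fragments C3a and C5a were low, and as deposited one was lower and the other higher. C3ar1 stood at 6.60 FPKM in miR-21+/+ and 5.06 FPKM in miR-21-/- glands (log2 ratio −0.38), just above the limit of 5 FPKM. C5ar1 stood at 8.94 and 11.2 FPKM (0.32). The ratio of C5ar1 to C3ar1 was 1.36 in wild-type and 2.21 in knockout glands. C6, a component of the membrane attack complex, was under the limit in both genotypes, at 3.74 and 1.92 FPKM, and its log2 ratio of −0.96 was −0.70 on the log2(FPKM + 1) scale.

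Inhibitors of complement differed by less than 1.2-fold in every row above 5 FPKM, 5 of 5, where 74.8% of all named loci lay within 1.2-fold. Beside Serping1, Clu encodes clusterin, a secreted chaperone that blocks the membrane attack complex, and stood at 88.3 and 106 FPKM (log2 ratio 0.26). Cd59a, a membrane-anchored inhibitor of the same complex, stood at 23.2 and 27.6 FPKM (0.25). Cd55, which speeds the decay of the C3-cleaving enzymes, stood at 30.4 and 26.9 FPKM (−0.18), and Vtn, which encodes vitronectin, at 7.68 and 7.13 FPKM (−0.11). The ratio of Clu to C3 was 0.174 in wild-type and 0.346 in knockout glands. Cfi, the protease that degrades C3b, was close to 0 in both genotypes, at 0.115 and 0.197 FPKM.

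Tissue factor had the largest log2 ratio of the 28 rows. F3, the membrane receptor that starts clotting with factor VII, stood at 20.8 FPKM in miR-21+/+ and 37.5 FPKM in miR-21-/- glands, a log2 ratio of 0.85 (1.81 times). It lies on the plus strand of chromosome 3 (121426455 to 121437970) and shares no 50-base window with another coding transcript. Of the named loci, 3.95% had a larger absolute log2 ratio. F13a1, the chain of factor XIII that cross-links fibrin and is also made by macrophages, stood at 59.4 and 74.8 FPKM (0.33), and Vwf, the platelet-binding protein of endothelium, at 8.68 and 9.64 FPKM (0.15). All 3 procoagulant rows above 5 FPKM were higher as deposited, where 43.1% of all named loci had a log2 ratio above 0. With equal sums over all loci F13a1 and Vwf would be lower, as would the median named locus. The clotting factors that the liver supplies to plasma were low here: F5 stood at 1.04 and 1.45 FPKM, F7 at 0.443 and 0.562 FPKM, and F10 at 0.361 and 0.595 FPKM.

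The natural anticoagulants differed among themselves in direction. Thbd, which encodes thrombomodulin, the endothelial receptor that turns thrombin into an activator of protein C, stood at 23.6 FPKM in miR-21+/+ and 36.5 FPKM in miR-21-/- glands, a log2 ratio of 0.63 (1.55 times). With equal sums over all loci its log2 ratio would be 0.00. This gene of a single exon lies on chromosome 2 (148230207 to 148233924), and 7.16% of the named loci had a larger absolute ratio. Procr, the protein C receptor that works beside thrombomodulin, was lower, at 19.4 and 15.9 FPKM (−0.29). Tfpi, the inhibitor of tissue factor, stood at 14.1 and 13.1 FPKM (−0.10), and Pros1, which encodes the cofactor protein S, at 33.996 and 37.4 FPKM (0.14). The ratio of Thbd to Procr was 1.21 in wild-type and 2.30 in knockout glands, and that of F3 to Tfpi was 1.48 and 2.85. Each sets a higher row over a lower one, which gives a larger change than either row alone. That of Thbd to F3, both past 1.5-fold higher, was 1.14 and 0.975.

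As deposited, one plasminogen activator was lower and the other higher, and the urokinase receptor was even. Plat, tissue plasminogen activator, stood at 35.1 FPKM in miR-21+/+ and 26.1 FPKM in miR-21-/- glands (log2 ratio −0.43). Plau, urokinase, stood at 22.4 and 30.5 FPKM (0.44). Their order was reversed between the genotypes, with Plau at 0.638 times Plat in miR-21+/+ and 1.17 times in miR-21-/- glands. Plaur, the urokinase receptor, stood at 6.37 and 6.35 FPKM (−0.01). Neither activator reached 1.5-fold.

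Markers of the cells that can make these proteins were compared in the same columns, because in whole tissue fewer cells of a type and less RNA per cell cannot be told apart. All 8 mammary epithelial markers were higher in miR-21-/- glands as deposited (median log2 ratio 0.53, from 0.15 to 0.95), and their summed level was 650 FPKM in miR-21+/+ and 897 FPKM in miR-21-/- glands. With equal sums over all loci that median would lie below 0, as would the median of all named loci. Of the 8 adipocyte markers, 7 were lower (median −0.40, from −0.54 upward), with sums of 12056 and 8885 FPKM, and Lep was the exception at 1.29. C3 at −0.73 lay below the lowest adipocyte marker. The 11 macrophage markers had a median of −0.04 (from −0.45 to 0.75) and sums of 879 and 826 FPKM, beside C1q ratios of −0.10 to 0.08. The 10 endothelial markers had a median of 0.07 (from −0.22 to 0.51) and sums of 265 and 286 FPKM. Vwf, Tfpi and Pros1 lay within their range, with Thbd above and Procr below it. Each of these members also lay within the wider range of the macrophage markers, so the ranges do not assign them to a cell type. The 8 fibroblast markers had a median of −0.15 (from −0.38 to 0.19) and sums of 5302 and 4743 FPKM.

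**Figure D3:**
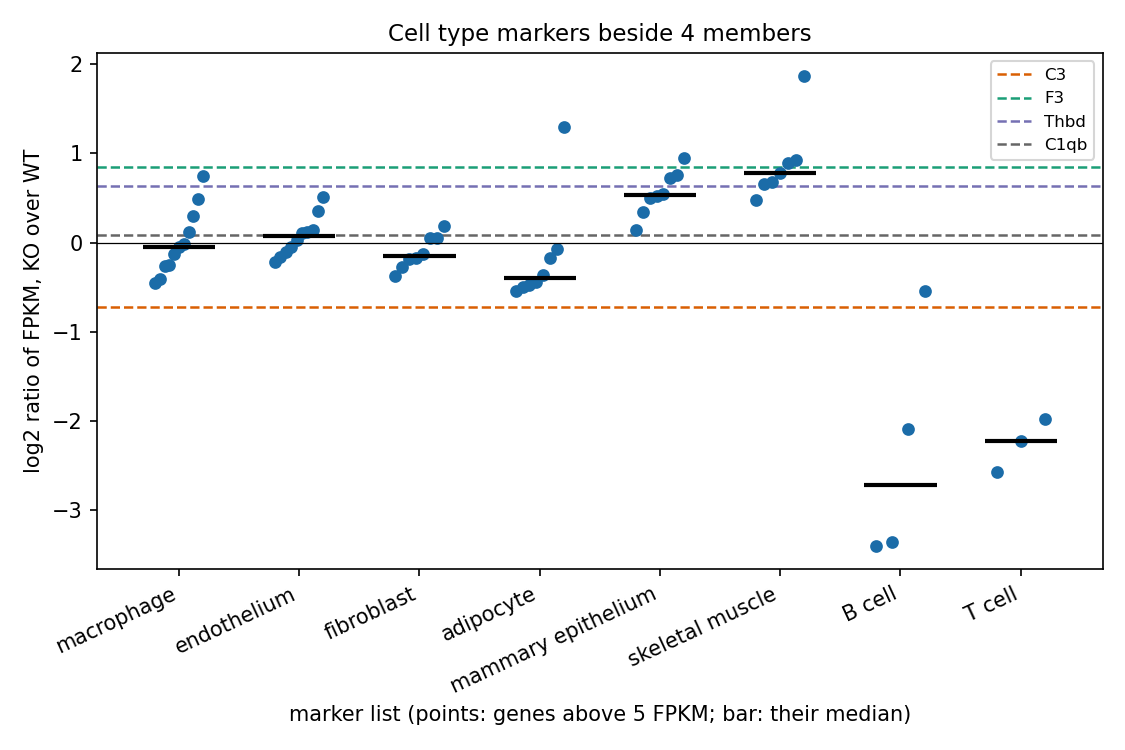
Log2 ratio of FPKM, miR-21-/- over miR-21+/+ (vertical axis), as deposited, of the marker genes above 5 FPKM in 8 cell type lists, with a bar at each median; dashed lines give the ratios of C3, F3, Thbd and C1qb. C3 at −0.73 lies below all 8 adipocyte markers, and F3 at 0.85 lies above all but 1 of the 8 epithelial markers.

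Markers of muscle, blood cells and liver were compared in the same way. The 7 skeletal muscle markers were all higher as deposited (median 0.78, sums of 1134 and 1881 FPKM), and their median would stay above 0 with equal sums over all loci. The 7 B cell markers were all lower, with sums of 103 and 53.4 FPKM, most of it from a row that merges Cd79a with Arhgef1 (70.3 and 48.3 FPKM), as were the 7 T cell markers, with sums of 39.6 and 8.86 FPKM. Of the 6 platelet markers, 4 were under 1 FPKM in both genotypes, and the sums were 44.4 and 46.6 FPKM, carried by Pf4. Of the 6 liver markers, 4 were likewise under 1 FPKM, and the sums were 19.8 and 20.1 FPKM, carried by Alb. The part of cell makeup in the differences of C3, F3 and Thbd was not tested.

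The rest of the complement and coagulation pathways was taken from a list of 77 further names, of which 74 were found. Above 5 FPKM, 29 rows held such a gene, with 8 log2 ratios above 0 (27.6%) and 21 below and a median of −0.12. Of all named loci, 43.1% lay above 0, with a median of −0.03. At 2-fold 4 of the 29 were past the limit, 2 higher and 2 lower, where the background was 2.73%. At 1.5-fold 7 were (24.1%), 3 higher and 4 lower, where the background was 8.18%. Of the lower rows, Fgb and F2r were above 5 FPKM in miR-21+/+ glands alone. With 5 FPKM required in both genotypes, 1 row was past 2-fold lower and 2 were past 1.5-fold lower. Among the complement and coagulation rows above 5 FPKM in at least 1 genotype, the 4 past 2-fold were thus all outside the 36 listed genes.

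Of the other coagulation genes, Gas6 and the fibrinogen chains stood out. Gas6, a vitamin K-dependent relative of protein S that binds receptor tyrosine kinases, stood at 85.0 FPKM in miR-21+/+ and 258 FPKM in miR-21-/- glands, a log2 ratio of 1.60. Thbs1, thrombospondin 1, a matrix protein of platelets and stroma, stood at 20.2 and 48.9 FPKM (1.28). Fgb, the fibrinogen beta chain, stood at 26.8 and 3.94 FPKM (−2.77), and Fgg, the gamma chain, at 37.4 and 14.1 FPKM (−1.41). Fga, the alpha chain needed for complete fibrinogen, was near 0 in both genotypes, at 0.00731 and 0.00928 FPKM. F2r, a thrombin receptor, stood at 7.10 and 4.14 FPKM (−0.78), and like Fgb it was above 5 FPKM in miR-21+/+ glands alone.

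Of the 12 rows of other complement genes above 5 FPKM, only that of Hc was past 1.5-fold (8.33%), a share near the 8.18% of all named loci. Hc encodes C5, the source of the ligand of C5ar1, and stood at 13.04 FPKM in miR-21+/+ and 24.6 FPKM in miR-21-/- glands (log2 ratio 0.92). Cfd, factor D or adipsin, the fat-derived protease that activates factor B, exceeded every listed member at 6946 and 5547 FPKM (−0.32). That ratio lay inside the ranges of the adipocyte, macrophage and fibroblast markers alike. Fcna, a ficolin that recognises sugars for the lectin pathway, was named after its value was seen and stood at 33.6 and 32.1 FPKM (−0.07). Of the 77 further names of both pathways, the most abundant after Cfd were Anxa2 and S100a10, which together bind plasminogen at the cell surface, Anxa5, a phospholipid-binding anticoagulant, and Gas6. Anxa2 stood at 231 and 243 FPKM (0.07), S100a10 at 216 and 185 FPKM (−0.22) and Anxa5 at 219 and 178 FPKM (−0.30).

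**Figure D4:**
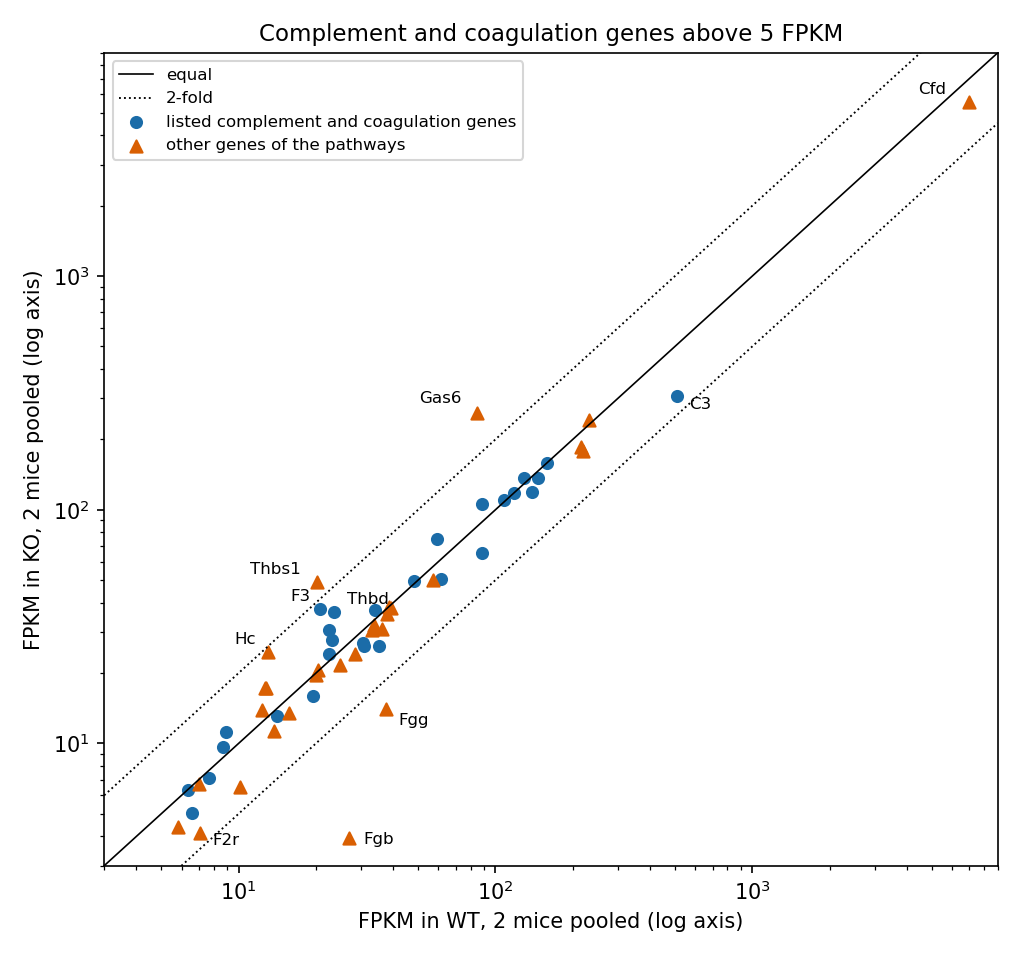
FPKM in miR-21-/- against miR-21+/+ glands (both axes logarithmic, 2 mice pooled per genotype) of the 28 listed rows (circles) and the 29 other complement and coagulation rows (triangles) above 5 FPKM. The solid line marks equal values and the dotted lines 2-fold; Gas6 and Thbs1 lie above and Fgb and Fgg below the dotted lines, and no circle lies beyond them.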

How the data were processed

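The authors aligned single-end reads to mm9 with TopHat, estimated abundances with Cufflinks and deposited a table, with the columns that Cuffdiff writes, of 1 FPKM value per genotype for each locus, which combines 2 mice. The submitters' processing notes also name CASAVA. Program versions, gene annotation and normalization options are not given in the sources used here. The columns of the authors' own comparison (status, log2 fold change, test statistic, p-value, q-value and call) were not used.

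A row was taken as a member if any of its comma-separated names was listed, and for a name with several rows the one with the highest mean FPKM. Log2 ratios were plain ratios without a pseudocount. Ratios between members were made for chosen pairs, without a background of other pairs, and not all of them are shown. A higher row set over a lower one, or the reverse, gives a larger change by construction. Counts were made over named loci above 5 FPKM in at least 1 genotype, the limit of the study, with each row counted once. Rows holding a member were left out of the counts of other pathway genes. Pooled values allow no test over animals, and the share of all named loci past a fold is given in its place. The members and lists were chosen with earlier results of these data known. Named were all members found, other pathway genes past 1.5-fold or among the 5 most abundant, and marker lists for macrophages, endothelium, fibroblasts, adipocytes, mammary epithelium, B cells, T cells, platelets, liver and skeletal muscle, whose genes are named only beside a member's result. Some genes that this rule would name are not reported here. Fga, Fcna and the exceptions within marker lists were named after their values were seen.

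Coordinates count from 1 in mm9, and all 35 loci overlapped the gene of that name in the GENCODE annotation of the same build (NCBIM37). Seed sites were searched in the longest annotated 3′ UTR, and shared windows of 50 bases, chosen for illustration because the read length is not given in the sources used here, in the longest transcript of each gene. The functions were tested on simulated data. Python 3.11.15, numpy 2.4.6, pandas 2.3.3, Biopython 1.88 and matplotlib 3.10.9 were used.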

Additional observations from a re-analysis of the deposited data

How the results depend on the processing

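No paired analysis was possible because each genotype is given as 1 pooled value, which also kept the fits without each mouse and with a replicate block from being run. The depth is unknown, which limits the rows at low FPKM most. For single members and medians, a value was said to move when it changed by more than 0.1 on the log2 scale.
With equal sums over all loci, 0 members were past 1.5-fold higher and 17 lower, 4 were past 2-fold lower, and the median of the members was −0.63. For the other pathway genes the same scaling gave 0 past 2-fold higher, 5 past 2-fold lower, 22 past 1.5-fold lower and a median of −0.76. These follow from the shift that the scaling gives every locus. Equal sums over named loci and equal medians shift every log2 ratio by 0.10 and 0.03, neither more than that limit, so no single member moved. With equal sums over named loci, 3 other pathway genes were past 2-fold higher and 3 past 1.5-fold lower, against 2 and 4 as deposited.
With a minimum of 1 FPKM, 2 members were past 1.5-fold lower, C6 beside C3, and 5 other pathway genes past 1.5-fold higher. Without a minimum, 4 members were past 1.5-fold higher, F10 and Cfi beside F3 and Thbd, and 2 lower, while of the other pathway genes 4 were past 2-fold higher, 6 past 2-fold lower, 10 past 1.5-fold higher and 12 past 1.5-fold lower. Above 5 FPKM in both genotypes, 1 other pathway gene was past 2-fold lower and 2 past 1.5-fold lower. The changes follow from the rows each limit admits. With a pseudocount of 1 FPKM 6 of 35 members moved, and with 0.1 FPKM 2 did. No log2 ratio of a member past 1.5-fold changed its direction under any alternative, although that of Thbd came to 0.00 with equal sums over all loci. Counting 8mer sites alone, 0 members held a miR-21 site.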

Other observations

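Several genes that the liver makes for plasma were at or near 0 in both pooled columns. Mbl1, Mbl2 and F13b were listed at 0 in both genotypes. F2, which encodes prothrombin, stood at 0.0713 FPKM in miR-21+/+ and 0.0733 FPKM in miR-21-/- glands, F9 at 0.0174 and 0.0177 FPKM and Kng1 at 0.0349 and 0.0347 FPKM. Plg, which encodes the plasminogen that Plat and Plau activate, was listed at 0 in miR-21+/+ and stood at 0.0146 FPKM in miR-21-/- glands. They were chosen for their low values.
Cr2, which encodes the complement receptor of B cells and follicular dendritic cells, stood at 1.91 FPKM in miR-21+/+ and 0.170 FPKM in miR-21-/- glands, a log2 ratio of −3.50 under the 5 FPKM limit. The B cell markers Ms4a1 and Pax5 stood beside it at −3.36 and −3.16, and the row that merges Cd79a with Arhgef1 at −0.54. Vsig4, a complement receptor of tissue macrophages, stood at 1.38 and 0.709 FPKM, beside 11 macrophage markers whose log2 ratios ran from −0.45 for Cd163 to 0.75 for Cd14, with 7 below 0. The part of lymphocyte content in the value of Cr2 was not tested.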
